A study of Mus musculus with 12 samples.

Results

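Transcripts of the Notch pathway were compared between tumors of a mouse lung cancer model and normal mouse lung. The genes described here are the 4 Notch receptors (Notch1, Notch2, Notch3 and Notch4), the 5 canonical ligands (Dll1, Dll3, Dll4, Jag1 and Jag2) and the target gene Hes1. They were chosen by symbol, and all 10 were found among the 30399 genes of the table. Poly-A RNA sequencing was done on 5 samples labelled normal lung (normal lungs 1 to 5) and 7 labelled tumor (tumors 1 to 7). The labels give the tissue alone, with no genotype, strain, age or targeted gene. As far as is known of the study, the model is made by delivering CRISPR/Cas9 without a virus to disrupt tumor suppressor genes, so that each tumor may carry its own alleles. Titles of tumors 3 and 4 share the number 159, and those of tumors 5, 6 and 7 share 201. Whether these came from 1 animal is not stated. Titles of tumors 1 and 7 hold the Spanish word for trachea. Nothing says that the samples of a group are separate animals, so the p-values measure the spread between samples, which may in part be technical.

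Notch receptors are membrane proteins that are activated by a ligand on a neighbouring cell. Ligand binding exposes the receptor to cleavage by Adam10 and then by the gamma-secretase complex, and the freed intracellular part enters the nucleus, binds Rbpj together with a Mastermind protein, and switches on genes such as Hes1. Hes1 is a repressor of proneural genes, and in the airway this pathway restrains the neuroendocrine fate. Dll3 differs from the other ligands in that it is not known to activate receptors on neighbouring cells and is mostly held inside the cell, and it is itself a known product of neuroendocrine tumors.

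Values are normalized counts, that is, reads per gene divided by a size factor of the sample. The normal lung libraries held 11126432 to 17032234 reads and the tumor libraries 13093843 to 24217633. Fold changes are differences of log2(value + 1), tumor minus normal lung, from a limma fit over 23674 genes, and a gene was called at a Benjamini-Hochberg adjusted p under 0.05. The tumors carried neuroendocrine markers, with 10 of 10 listed markers higher and summed levels of 33517 to 128375 normalized counts against at most 421 in normal lung. All 10 lung epithelium markers were lower. Tumor 7 had the lowest neuroendocrine sum of the tumors and the highest sums of leukocyte, cardiac muscle, fibroblast and mural (smooth muscle and pericyte) markers. Its summed leukocyte markers reached 65673 normalized counts against 477 to 19309 in the other tumors and 99312 to 194112 in normal lung. These sums rest mostly on single markers, since Cd74 gave 50881 of the sum in tumor 7 and Lyz2 averaged 111770 in normal lung. The summed cardiac muscle markers of tumor 7 reached 39940 against at most 2876 in the other tumors and 4304 in normal lung. Its fibroblast sum was 36154 against 4011 to 24788 in the other tumors and 10990.2 to 27001 in normal lung, and its mural sum 16918 against 3227 to 10229.9 and 8439 to 14227.

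All 10 genes differed between tumor and normal lung, 8 lower and 2 higher. Over all genes tested, 61.5% were called, 30.1% lower and 31.4% higher in tumor, so a call by itself was common in this comparison. The values of the groups did not overlap for 6 of the 10 genes, where 38.4% of all genes tested did not overlap. Notch1, Notch4, Jag1 and Hes1 lay below normal lung in every tumor (18.4% of all genes did), and Dll3 and Jag2 lay above it in every tumor (20.1%). The median log2 fold change was -1.85 over the 10 genes and 0.04 over all genes tested. Without tumor 7 the calls were also 8 lower and 2 higher, where 32.1% and 32.6% of all genes were. On the recovered reads edgeR called 7 lower and 2 higher (29.6% and 33.6% of its genes), and DESeq2 8 and 2 (26.9% and 30.3%). In a bulk sample, fewer cells of a type and less RNA per cell cannot be told apart.

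**Figure D1:**
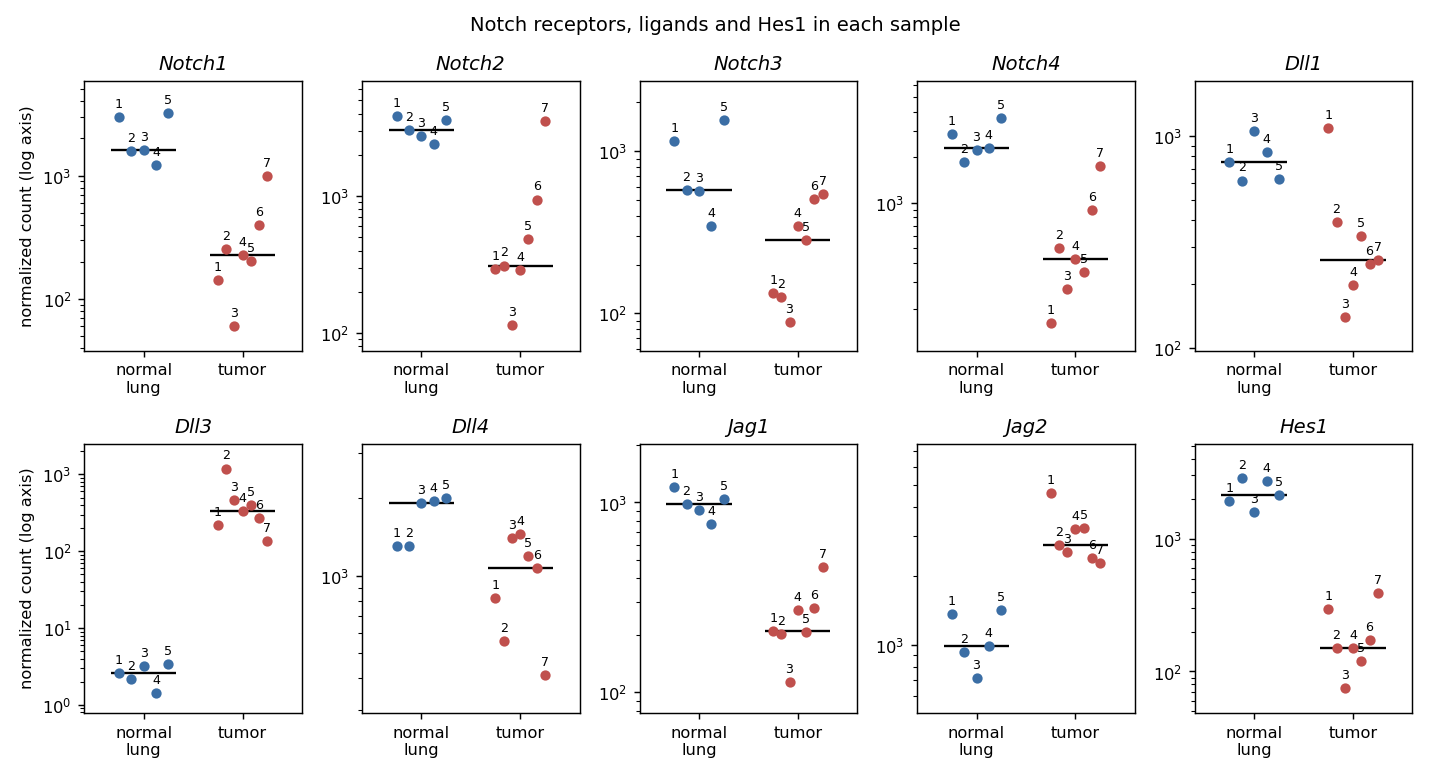
Normalized counts (log axis, own scale per panel) of each gene in the 5 normal lungs (blue) and 7 tumors (red), with the sample number at each point and the group median as a line. Dll3 and Jag2 lie higher in every tumor than in any normal lung, Notch1, Notch4, Jag1 and Hes1 lie lower, and tumor 7 has the highest receptor values of the tumors.

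All 4 receptors fell. Notch1 (ENSMUSG00000026923), the receptor best known from T cell and vessel development, stood at 2998, 1582, 1620, 1223 and 3193 normalized counts across normal lungs 1 to 5, and at 142, 253, 60.5, 228, 203, 397 and 991 across tumors 1 to 7. Every tumor lay below the lowest normal lung, and tumor 7 was the highest tumor. The group means were 2123 ± 904 (SD, n = 5) and 325 ± 312 (SD, n = 7). Notch1 fell by 3.06 log2 units (SE 0.53, limma adjusted p = 0.000233).

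Notch4 (ENSMUSG00000015468), a receptor expressed mainly in endothelium, stood at 2866, 1857, 2217, 2292 and 3633 normalized counts across the normal lungs, and at 160, 505, 268, 427, 349, 902 and 1751 across tumors 1 to 7. The groups did not overlap, with tumor 7 just under normal lung 2 and tumor 1 lowest. Notch4 fell by 2.41 log2 units (SE 0.47, limma adjusted p = 0.000581).

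Notch2 (ENSMUSG00000027878) is the most broadly expressed of the receptors. The normal lungs held 3868, 3051, 2746, 2415 and 3573 normalized counts of it, and tumors 1 to 7 held 295, 311, 115, 287, 483, 943 and 3548. Tumor 7 lay inside the range of normal lung, and the other 6 tumors lay below it. Notch2 fell by 2.72 log2 units (SE 0.63, limma adjusted p = 0.00205). It had the widest spread of the members across tumors, with an SD of 1.58 on the log2 scale against 0.28 across normal lungs. Without tumor 7 it fell by 3.20, without tumors 6 and 7 it fell by 3.50, and in edgeR on all samples it fell by 1.83 (adjusted p = 0.0401), and in edgeR without tumor 7 it fell by 2.99 (adjusted p = 4.59e-05).

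Notch3 (ENSMUSG00000038146) is the receptor of smooth muscle cells and pericytes. Its normal lung values were 1156, 577, 570.1, 347 and 1565 normalized counts, and its tumor values 134, 126, 88.2, 347, 285, 505 and 541. The groups overlapped, since tumors 6 and 7 lay above normal lung 4, the lowest normal lung. Notch3 fell by 1.63 log2 units (SE 0.50, limma adjusted p = 0.0127).

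Notch1 and Notch3, like Dll4, overlap an annotated gene on the opposite strand, and use of the strand is not stated, so their counts may hold reads of that gene.

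The 4 receptors kept a similar order of samples within both groups. Tumor 7 had the highest value of all 4 and tumor 6 the second highest of all 4, while the lowest was tumor 3 for Notch1, Notch2 and Notch3 and tumor 1 for Notch4. Tumors 5, 6 and 7 share a title number and still differed, with Notch2 at 483, 943 and 3548 normalized counts. Their titles also differ in site, since tumors 5 and 6 are titled lung and tumor 7 trachea. Leukocyte marker scores (mean of log2(value + 1) over 9 genes) also were highest in tumor 7 (10.65) and tumor 6 (8.70) and lowest in tumor 3 (4.50), and 1 of these markers, Cd3e, was at 0 in 3 tumors. With 10.59 to 11.57 in normal lung, tumor 7 was the only tumor within that range for this score. Endothelial marker scores were 9.36 in tumor 7 and 7.15 in tumor 3, and the part of these cells, and of the fibroblasts and mural cells whose markers were also highest in tumor 7, in the receptor values was not tested. Among normal lungs, samples 1 and 5 held the 2 highest values of every receptor. The same normal lungs held the 2 highest values of other genes too, among them Jag1, Jag2, Maml2, Numb, Furin and Spen. Spen, a corepressor of the Rbpj complex, was at 2717 and 2752 normalized counts there against 745 to 1410.0 in the other normal lungs. These genes were picked for this remark after their values were seen, and Hes1 was highest in normal lung 2.

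Hes1 (ENSMUSG00000022528), the basic helix-loop-helix repressor that Notch signalling switches on, fell furthest of the 8 genes that were lower. The normal lungs held 1937, 2889, 1604, 2740 and 2149 normalized counts of Hes1, and tumors 1 to 7 held 294, 151, 75.3, 151, 119, 174 and 389. Every tumor was far under the lowest normal lung, and tumor 7 was again the highest tumor and tumor 3 the lowest. The mean in normal lung, 2264 ± 541 (SD, n = 5), was 11.7 times that in tumors, 193 ± 109 (SD, n = 7). Hes1 fell by 3.69 log2 units (SE 0.34, limma adjusted p = 9.04e-07).

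The ligands split. Dll3 and Jag2 rose, and Dll1, Dll4 and Jag1 fell. Dll3 (ENSMUSG00000003436), the inhibitory Delta-like protein, was close to the limit of detection in the normal lungs, at 2.58, 2.15, 3.23, 1.41 and 3.45 normalized counts, each from 1 to 3 reads. Tumors 1 to 7 held 217, 1192, 460.0, 330.5, 402, 274 and 136, from 213 to 1001 reads. Tumor 2 was the highest by far and tumor 7 the lowest, and no tumor came near normal lung. Counted over all libraries, 3292 reads in tumors against 10 in normal lung gave a ratio of 145.6 after size factors, with an exact 95% interval of 79.1 to 304 that covers counting error only. In limma Dll3 rose by 6.64 (SE 0.45, adjusted p = 4.15e-08). The change was 7.29 in edgeR, 7.39 in DESeq2 and 7.08 in limma with a pseudocount of 0.1.

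Jag2 (ENSMUSG00000002799), a Serrate-type ligand that activates Notch receptors, was at 1359, 930.0, 717, 990.3 and 1423 normalized counts across the normal lungs and at 4592, 2741, 2536, 3220, 3232, 2400 and 2284 across the tumors. The lowest tumor lay above the highest normal lung. Its spread across tumors was the smallest of the 10 genes, an SD of 0.35 on the log2 scale. Jag2 rose by 1.48 log2 units (SE 0.21, limma adjusted p = 4.22e-05), from a mean of 1084 ± 299 (SD, n = 5) to 3001 ± 795 (SD, n = 7).

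Jag1 (ENSMUSG00000027276), the second Serrate-type ligand, went the other way. Its normal lung values were 1208, 987, 909, 766 and 1048 normalized counts, and its tumor values 209, 203, 113, 271, 209, 278 and 459. The groups did not overlap, with tumor 7 highest and tumor 3 lowest of the tumors, as for Hes1. Jag1 fell by 2.07 log2 units (SE 0.28, limma adjusted p = 2.39e-05).

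Dll1 (ENSMUSG00000014773), a Delta-like ligand that activates receptors, was at 749, 616, 1055, 842 and 628 normalized counts across the normal lungs and at 1091, 394, 139.8, 198, 338, 248 and 261 across the tumors. Tumor 1 exceeded every normal lung, and the other 6 tumors lay below the lowest normal lung. Dll1 fell by 1.31 log2 units (SE 0.40, limma adjusted p = 0.0114). This call was lost in edgeR (-1.03, adjusted p = 0.0558), with same-numbered tumors averaged (-1.02, adjusted p = 0.0701) and with a covariate for Y-linked expression (-0.85, adjusted p = 0.179). That covariate, a mean of log2(value + 1), was 9.14 in tumor 1 and at most 1.48 in the other tumors. Among the tumors it therefore mostly sets tumor 1 apart, the tumor with the highest Dll1. In normal lung 3, the normal lung with the highest Dll1, the covariate was 0. Without tumor 1 and with no covariate, Dll1 fell by 1.61 (limma adjusted p = 0.000188).

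Dll4 (ENSMUSG00000027314), the ligand of sprouting endothelium, changed least. The normal lungs held 1304, 1307, 1917, 1961 and 2009.6 normalized counts of it, and tumors 1 to 7 held 822, 559, 1398, 1458, 1191, 1076 and 411. Tumors 3 and 4 lay among the normal lungs, and tumor 7 was the lowest. Dll4 fell by 0.88 log2 units (SE 0.30, limma adjusted p = 0.0221). The call was lost when all columns were scaled to the same total (-0.68, adjusted p = 0.0590), with the Y-linked covariate (-0.96, adjusted p = 0.0708) and without normal lung 3 (-0.83, adjusted p = 0.0507), normal lung 4 (-0.82, adjusted p = 0.0526) or normal lung 5 (-0.81, adjusted p = 0.0527).

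**Figure D2:**
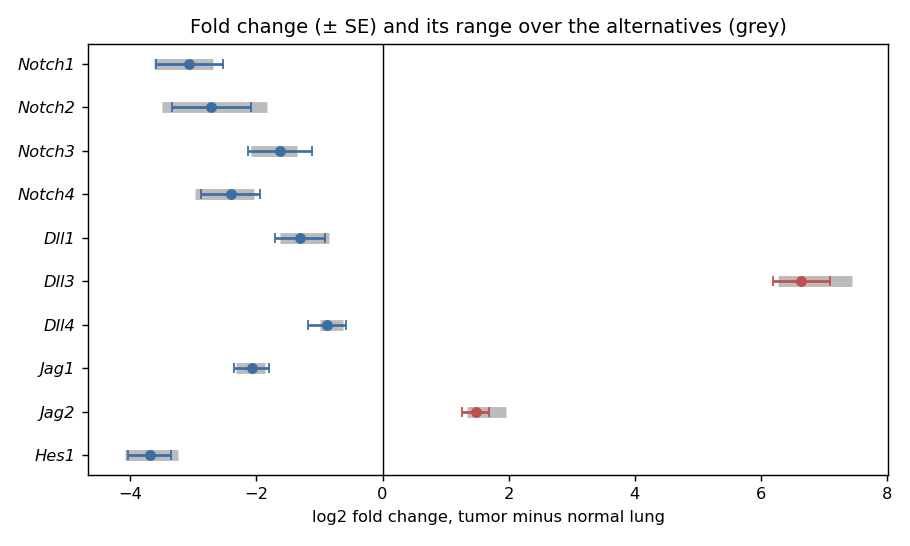
Log2 fold change (tumor minus normal lung) of each gene with its standard error, and in grey the lowest and highest value over 25 alternative fits. Dll3 at 6.64 and Jag2 at 1.48 stand on the positive side and the other 8 genes on the negative side, and no grey bar crosses 0.

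Promoter sequences show how the ligand genes that rose differ in their starts. RefSeq windows of 300 bases, 250 before and 50 after the start site (build GRCm38.p6), were matched by symbol for 9 of the 10 members, in 10 windows since Dll1 has 2. The member without a window was Hes1, so the Hes1 promoter was not searched. The letters TGGGAA, the core bound by Rbpj, were searched on both strands and were in 0 of the 10 windows, against 25.6% of all 32851 windows. The E-box CAGCTG, a palindrome of the kind bound by basic helix-loop-helix factors, was searched after the values were seen. It was in 3 of the 10 windows, those of Dll3, Jag1 and 1 of the 2 of Dll1, against 16.3% of all windows. Of these 3 genes Dll3 rose and Jag1 and Dll1 fell. Shown here, with CAGCTG in capitals, are the 2 genes that rose and Jag1 as the sister of Jag2.
Dll3, chr7:28301736-28302035, minus strand: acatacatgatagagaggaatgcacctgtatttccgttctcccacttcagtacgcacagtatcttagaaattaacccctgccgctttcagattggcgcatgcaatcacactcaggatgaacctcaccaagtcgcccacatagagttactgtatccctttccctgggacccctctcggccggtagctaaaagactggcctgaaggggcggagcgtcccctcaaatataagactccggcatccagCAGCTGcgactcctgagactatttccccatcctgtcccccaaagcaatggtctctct
Jag2, chr12:112929446-112929745, minus strand: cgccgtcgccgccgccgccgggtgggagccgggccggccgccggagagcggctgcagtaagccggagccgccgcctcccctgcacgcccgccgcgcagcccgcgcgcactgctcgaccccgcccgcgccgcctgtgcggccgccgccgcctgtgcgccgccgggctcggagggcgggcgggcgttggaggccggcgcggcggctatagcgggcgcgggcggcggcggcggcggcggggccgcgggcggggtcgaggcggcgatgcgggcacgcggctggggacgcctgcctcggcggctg
Jag1, chr2:137116471-137116770, minus strand: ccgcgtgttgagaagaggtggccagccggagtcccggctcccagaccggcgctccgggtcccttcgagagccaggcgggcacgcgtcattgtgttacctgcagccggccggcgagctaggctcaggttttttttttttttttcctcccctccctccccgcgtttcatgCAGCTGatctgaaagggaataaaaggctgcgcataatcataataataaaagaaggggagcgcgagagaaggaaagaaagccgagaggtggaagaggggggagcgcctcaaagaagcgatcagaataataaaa
In Dll3 the E-box begins 7 bases before the start site and in Jag1 82 bases before it. The Jag2 window has no CAGCTG and is 86.0% G and C with 63 CG pairs, against a median of 52.7% and 7 CG pairs over all windows. The Dll3 window is 52.0% G and C with 11 CG pairs. These are matches of letters in a short window, and binding was not measured.

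Levels of different genes were compared after division by exon length. In normal lung Hes1 was highest at 1111 ± 266 normalized counts per kb (SD, n = 5), clear of Dll4 at 441 ± 93.8. Below them, Dll4, Notch4 (319 ± 86.1) and Notch2 (290.3 ± 55.0) overlapped with their neighbour within 1 SD, Notch2 and Dll1 did not, and Dll1, Jag1, Jag2, Notch1 and Notch3, from 184 down to 104 per kb, did. Dll3 was last, at 0.900 ± 0.290. In tumors Jag2 was highest at 431 ± 114 per kb (SD, n = 7), then Dll4 at 256 ± 105, Dll3 at 151 ± 124 and Hes1 at 94.9 ± 53.8. Every pair of neighbours in that order overlapped within 1 SD. Notch1, at 22.8 ± 21.9 per kb, was last.

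Summed over the 5 ligands, the level per kb was 951 ± 103 in normal lung and 971 ± 200 in tumors, and the groups overlapped. Summed over the 4 receptors it was 863 ± 253 in normal lung and 215 ± 219 in tumors, where tumor 7 at 683 lay within the normal range of 637 to 1200. The make-up of the ligands changed more than their sum. Dll4 held 46.1% ± 6.12 of the ligand sum in normal lung and 26.6% ± 10.4 in tumors. Jag2 held 16.4% ± 4.31 and 44.5% ± 6.44, without overlap. Dll3 went from at most 0.115% in normal lung to between 6.13% and 38.6% in tumors, with tumor 2 at the top. Without division by length its mean share in tumors was 8.60% in place of 15.1%. Jag1 held 18.0% ± 3.92 in normal lung and 4.93% ± 3.61 in tumors, also without overlap. Among the receptors no share separated the groups, and Notch4 was at 37.4% ± 4.71 and 39.1% ± 10.6.

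**Figure D3:**
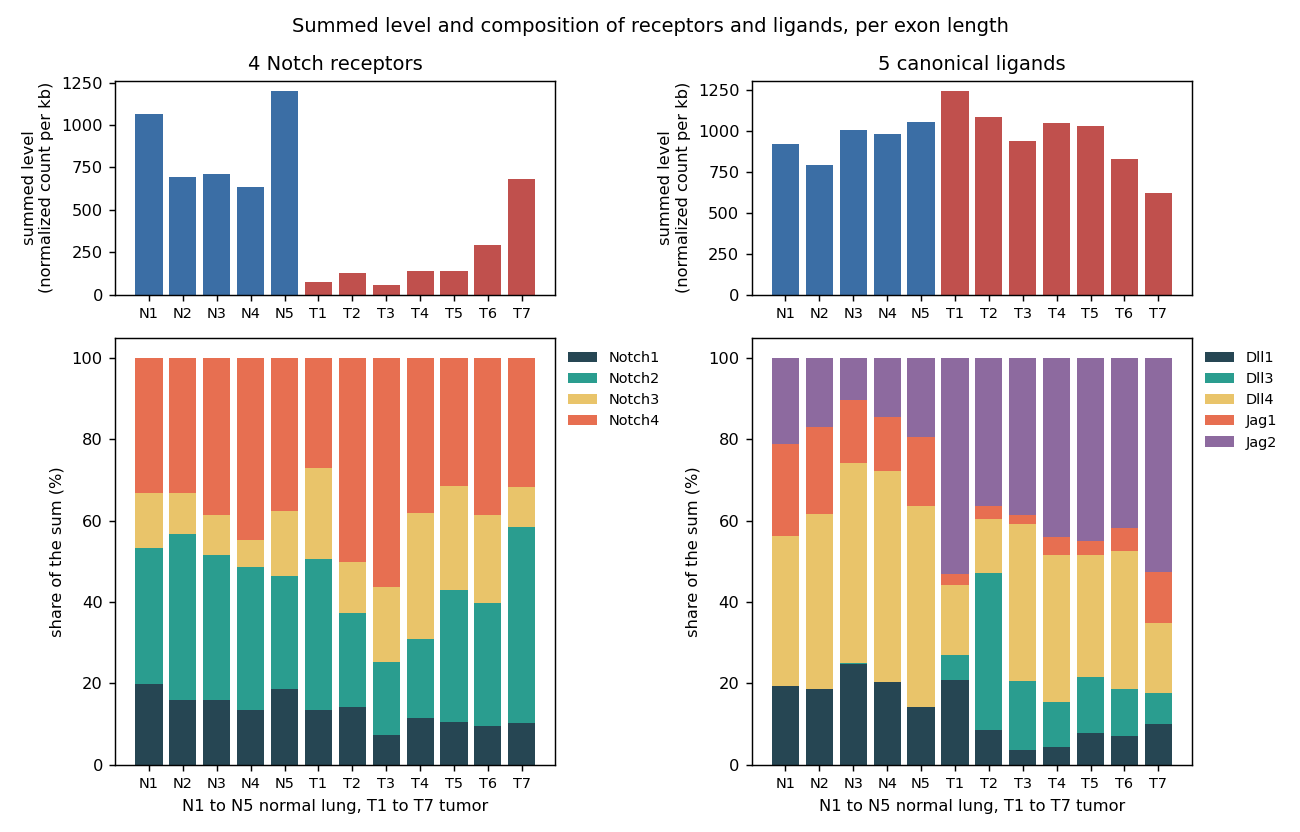
Upper panels show the summed level of the 4 receptors and of the 5 ligands in each sample (normalized counts per kb of exon; blue, normal lung; red, tumor), and lower panels the share of each gene in that sum. The receptor sum of tumors 1 to 6 lies below every normal lung and the ligand sums of the groups overlap, and Jag2 holds 36.3% to 53.0% of the ligand sum in tumors against 10.2% to 21.2% in normal lung.

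Several members are known from endothelium, so they were set beside 10 endothelial markers. All 10 markers were lower in tumor, with a median log2 fold change of -4.64, and their summed level was 78517 to 93804 normalized counts in normal lung and 3270 to 8863 in tumors, with none at 0. Relative to the mean log2 level of these markers, Notch4 stood at -1.32 ± 0.29 in normal lung (SD, n = 5) and at 0.67 ± 0.60 in tumors (SD, n = 7), without overlap. Dll4 stood at -1.91 ± 0.24 and 1.62 ± 1.34, and Jag2 at -2.58 ± 0.39 and 3.31 ± 1.01, both without overlap. Notch1 stood at -1.67 ± 0.56 and -0.32 ± 0.62, with overlap. The mean marker level itself was 12.46 for the lowest normal lung and 9.36 for the highest tumor. A gene that changed little would thus tend to separate the groups once this level is subtracted. Whether the missing overlap of Notch4, Dll4 and Jag2 sets them apart from other genes is therefore not known. How many of all genes separate in this way was not tested. The levels of Notch1 and Notch4 were lower in tumor, but by less than the mean marker level was. Single markers fell by between 1.79 (Vwf) and 7.24 (Cldn5) log2 units. Notch4 fell by less than every marker but Vwf, the only marker whose groups overlapped. Notch1 fell by less than every marker but Vwf and Emcn (2.82). Among the tumors, Dll4 was lowest in tumor 7, where the endothelial score was highest. Of 8 markers of smooth muscle cells and pericytes, 5 were lower, 2 were not called and Rgs5 rose by 3.59 (limma adjusted p = 5.61e-06), so their overlapping sums join markers that went both ways. None was at 0. Against the mean log2 level of these 8 markers, Notch3 stood at -0.10 ± 0.76 and -0.76 ± 0.61 and Jag1 at 0.31 ± 0.36 and -0.79 ± 0.56, both with overlap. No test was run on these differences.

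**Figure D4:**
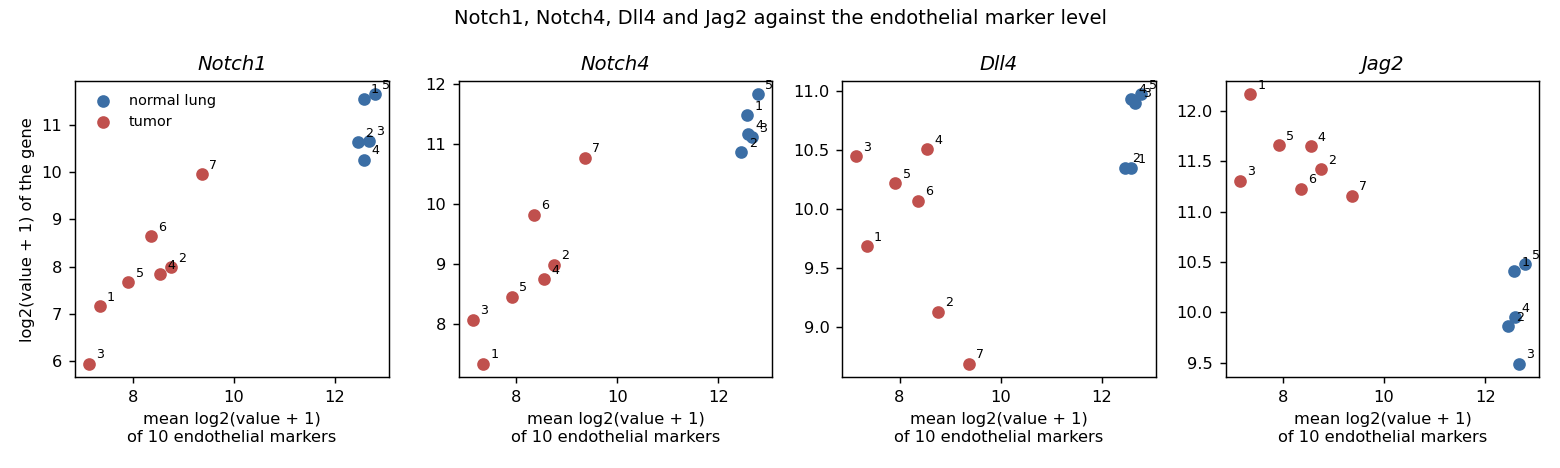
Log2 level of Notch1, Notch4, Dll4 and Jag2 against the mean log2 level of 10 endothelial markers in the 5 normal lungs (blue) and 7 tumors (red), with sample numbers. Notch1 and Notch4 are highest among the tumors in tumor 7, which also has the highest endothelial level of the tumors (9.36), while Dll4 is lowest there.

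Other genes of the pathway were taken from 8 lists with 61 genes, of which 56 were tested. In all 18 were higher and 18 lower, 64.3% of the 56, close to the 61.5% of all genes, and the median log2 fold change was -0.07. Among 5 other target genes of Notch, 3 were lower, 1 was higher and Hes7 was not called (-0.09, limma adjusted p = 0.847). Hey1, a repressor related to Hes1, fell by 1.90 log2 units (SE 0.26, limma adjusted p = 2.72e-05), from 1898 ± 427 to 524 ± 177 normalized counts. Hey2 fell by 1.64, and Heyl fell by 1.38, a call that was lost with columns scaled to the same total (adjusted p = 0.0656) and in edgeR (adjusted p = 0.120). Hes5, a target best known from neural progenitors, rose by 2.58 (SE 0.49, limma adjusted p = 0.0005) at low levels, 0 to 4.30 normalized counts in normal lung and 8.898 to 35.2 in tumors.

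Of 9 genes of the nuclear complex, 4 were higher, 2 lower and 3 not called. Rbpj, the DNA-binding partner of every Notch receptor, was at 855 ± 91.3 normalized counts (SD, n = 5) in normal lung and at 962 ± 407 (SD, n = 7) in tumors. It was not called, at a difference of 0.09 log2 units (SE 0.22, limma adjusted p = 0.725). The coactivator Maml2 fell by 1.46 on the log2 scale (adjusted p = 0.00142) and Maml1 fell by 0.63 (adjusted p = 0.0383), a call that was lost with columns scaled to the same total (adjusted p = 0.152). Their relative Maml3 went the other way and rose by 0.87 (limma adjusted p = 0.0096), from a mean of 2086 to 3998 normalized counts, with overlap. The corepressor Spen rose by 1.21 (adjusted p = 0.00295). Of 10 genes of receptor cleavage, 6 were lower, 1 higher and 3 not called, and the lower count was 3 when columns were scaled to the same total. Furin, which cuts the receptor precursor, fell by 1.31 on the log2 scale, and Psen2, a catalytic subunit of gamma-secretase, fell by 1.49, a call that was lost in edgeR (adjusted p = 0.0983). Aph1b, another subunit of that complex, rose by 0.68. Among 5 glycosylation genes the 1 called was Lfng, a Fringe enzyme that alters the ligand preference of the receptors, which fell by 1.93 on the log2 scale (adjusted p = 0.00176). With columns scaled to the same total Mfng was also called higher (0.54, adjusted p = 0.0168), and in edgeR Pofut1 was called lower (-0.28, adjusted p = 0.0188). In tumor 1, which also had the highest Dll1, Lfng was at 1866 normalized counts, within the normal range of 1642 to 2177, against 238 to 976 in the other tumors.

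Of 4 ubiquitin ligases that act on ligands, Neurl1b and Neurl1a rose, by 3.97 (SE 0.24, limma adjusted p = 1.33e-08) and 2.998 (SE 0.32, limma adjusted p = 2.98e-06), while Mib1 (0.31) and Mib2 (-0.18) were not called. With columns scaled to the same total Mib1 was called higher (0.52, adjusted p = 0.00561). Neurl1b went from 774 ± 114 to 12687 ± 4192 normalized counts. Of 8 genes of receptor turnover, 3 were higher and 2 lower. Numb, an adaptor that removes Notch from the membrane, fell by 1.76 log2 units (SE 0.15, adjusted p = 4.76e-07), and its relative Numbl rose by 0.72 (adjusted p = 0.0261). Dtx1, a Deltex ubiquitin ligase that binds the receptor, rose by 3.19 (adjusted p = 2.71e-06), and Dtx3l fell by 1.54.

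Among 6 non-canonical ligands, 3 were higher and 1 lower. Dner, a neuronal membrane protein, rose by 8.38 (SE 0.28, limma adjusted p = 1.25e-10), from 10.1 ± 3.22 to 3800.2 ± 1364 normalized counts. Dlk1, a Delta-like protein without the receptor-binding domain of the canonical ligands, was listed at 0 for all normal lungs and ran from 6.33 in tumor 1 to 869 in tumor 3. Against a floor of 3 reads per library its tumor mean was at least 46.1-fold higher, and at least 23.9-fold higher without tumor 3. Egfl7, which is made by endothelium, fell by 4.91 on the log2 scale. Among 9 tested proneural and Hes1-linked factors, 4 were higher and 3 lower. Insm1, a zinc finger factor of neuroendocrine cells, rose by 9.08 (SE 0.34, adjusted p = 4.14e-10). Hes6, which opposes Hes1, rose by 2.15 (SE 0.34, adjusted p = 0.000118). Rest, the repressor of neuronal genes, fell by 3.17 on the log2 scale and Yap1 fell by 4.50, with tumor 7 the highest tumor for both (620 and 721 normalized counts).

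**Figure D5:**
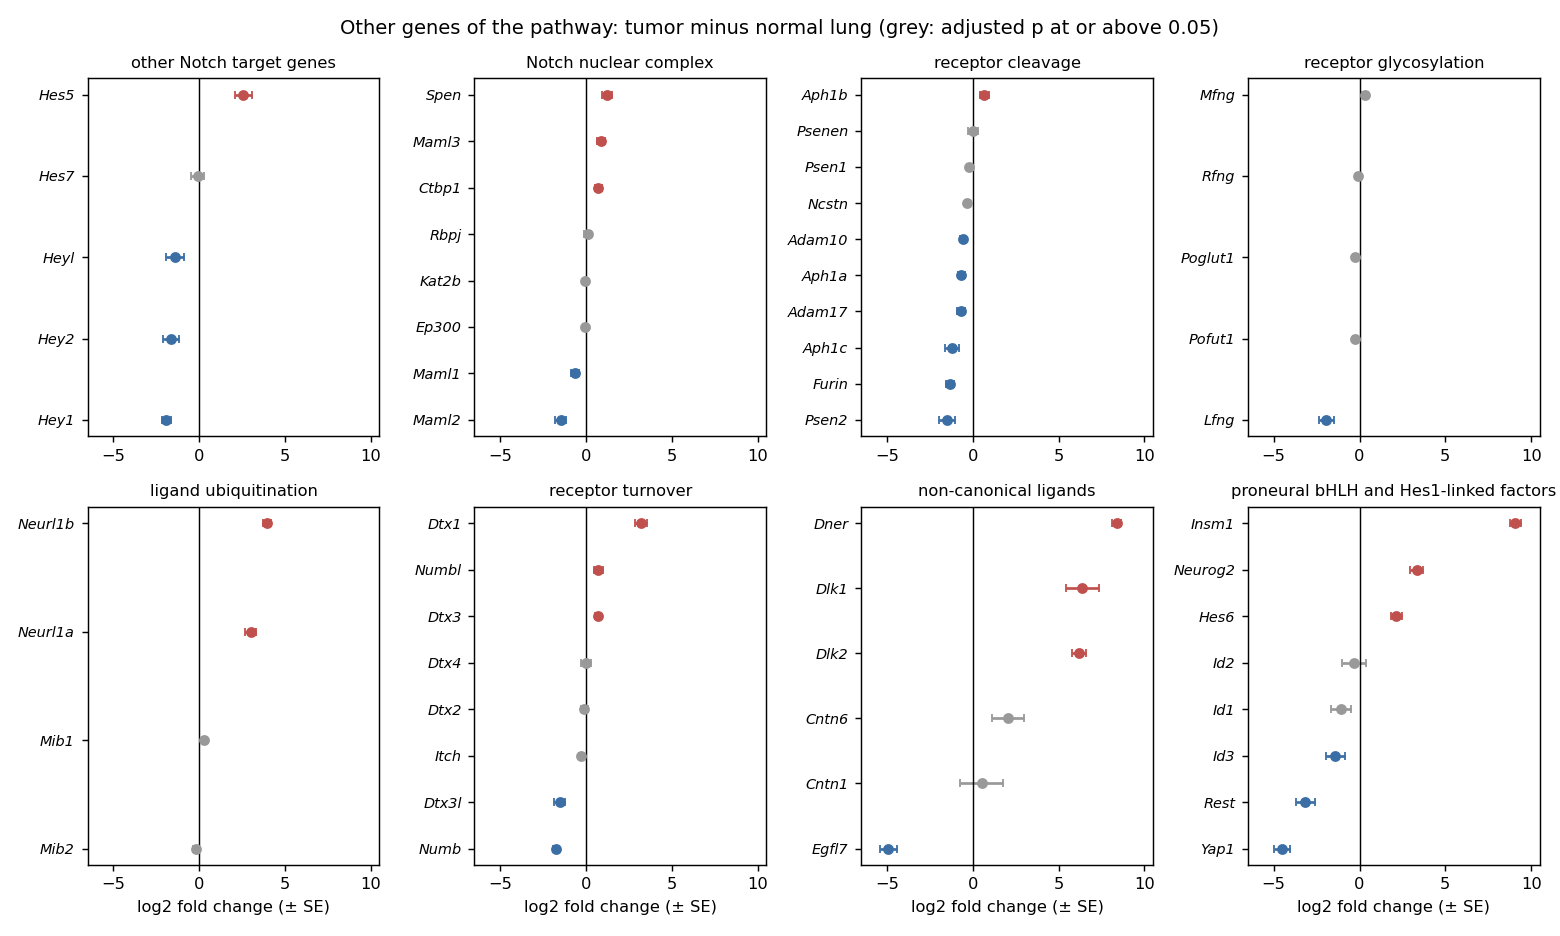
Log2 fold change (tumor minus normal lung, with standard error) of 54 of the 56 other genes in 8 lists of the pathway, red where higher, blue where lower and grey where the adjusted p was at or above 0.05. The largest increases shown are Insm1 (9.08) and Dner (8.38) and the largest decreases Egfl7 (-4.91) and Yap1 (-4.50), and Rbpj stands near 0.

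Tumor 7 was the lowest tumor in Dll3, Jag2 and Dll4, and its neuroendocrine marker sum of 33517 normalized counts was also the lowest. The part of other cells in these values was not tested. Over all 12 samples, which include the difference between tissues, the genes most like each member were found by Pearson's r among genes with a mean log2 value of at least 6. For Dll3 they were Plppr3 (r = 0.995), Nup155 (0.994) and Foxm1 (0.994), among 13458 genes. For Hes1 they were Ttc38 (0.995), Spry1 (0.991) and Smagp (0.9905), for Jag2 Inpp5j (0.987), Kcnh2 (0.969) and Ccdc149 (0.968), for Notch1 Pkn3 (0.996), Lama4 (0.989) and Tln1 (0.987), and for Notch2 Dock8 (0.994), Inpp4b (0.993) and Birc3 (0.989). For Dll4 the highest r was 0.904, with Cutal. These are descriptions of points that share a tissue, and the highest of many values.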

How the data were processed

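Poly-A RNA was sequenced as paired ends from 5 normal lungs and 7 tumors. The deposited values are normalized counts, a signal per gene and sample. Per the submitters' processing notes, featureCounts and DESeq2 were used with the build GRCm39, and the aligner, annotation and use of strand are not given in the sources used here. In every column 100% of the deposited signal values were whole multiples of the value of 1 read (tolerance 0.001), which gave back the reads. Symbols and exon lengths were taken from GENCODE release M21 and matched 29982 of 30399 identifiers. Since its build differs from that of the table, coordinates are given only for RefSeq promoters.

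The 10 members and all lists were chosen with earlier results of these data known. The 23674 genes whose mean value reached 1 were fitted as log2(value + 1) in limma 3.58.1 (lmFit, then eBayes with a trend; R 4.3.3), and p-values were adjusted over all of them by the Benjamini-Hochberg method. The design had named edgeR for raw counts, and the table called for limma. edgeR 4.0.16 with TMM factors and DESeq2 1.42.0 were run on the reads as alternatives, beside other pseudocounts, filters, scalings, a correlated block of title numbers, averaging, a Y-linked covariate, and leaving out samples. The edgeR fit without tumor 7, the fit without tumors 6 and 7 and the CAGCTG search were added after seeing the data. Pathway genes are named by rule: the 2 largest called changes in each direction per list, and Rbpj, Maml2, Hey1, Hes5, Hes6, Lfng, Dlk1, Rest and Yap1, leaving out 2 genes that are not reported here. Hes7, Heyl, Maml3, Mfng, Mib1, Mib2 and Pofut1 were named after their values were seen. So were the marker genes Cd3e, Cd74, Cldn5, Emcn, Lyz2, Rgs5 and Vwf. On simulated counts for 23674 genes, limma recovered 100 of 100 genes changed by 2 log2 units and 38 of 100 changed by 1, with 4 false calls in 142. The simulation changed 200 genes and gave every gene the same dispersion in both groups. Tumors spread more widely in the data, as for Notch2 (log2 SD 1.58 against 0.28 in normal lung), so these rates need not hold there. A value of 3 reads is at most 4.85 normalized counts in the normal lungs and 3.57 in the tumors. All 31 pairs of libraries within a group differed by more than sampling noise (chi-square over degrees of freedom at least 19.85). Of 136 listed genes, 6 (such as Nrarp) were not analysed here. Tables and figures used Python 3.11.15, pandas 2.3.3, scipy 1.17.1 and matplotlib 3.10.9.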

Additional observations from a re-analysis of the deposited data

Results flagged for a closer look

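Of 72 groups checked (36 genes in normal lung and in tumors), 1 held a sample that stood apart from the others by Dixon's 95% limit, where chance gives 3.6. Rbpj in tumor 7 had a log2 value of 10.86 against 9.44 to 9.93 in the other tumors.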

How the results depend on the processing

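Over 25 alternatives Notch1, Notch2, Notch3, Notch4, Dll3, Jag1, Jag2 and Hes1 kept their direction and their call. Their ranges of log2 fold change were -3.63 to -2.69, -3.50 to -1.83, -2.08 to -1.35, -2.98 to -2.03, 6.27 to 7.44, -2.32 to -1.87, 1.34 to 1.95 and -4.09 to -3.24. In every alternative 2 members were higher, and 6 to 8 were lower. The call of Dll1 was lost in edgeR (-1.03), in edgeR without tumor 7 (-0.96), with same-numbered tumors averaged (-1.02) and with the Y-linked covariate (-0.85). The call of Dll4 was lost with the Y-linked covariate (-0.96) and with columns scaled to the same total (-0.68), and leaving out 1 normal lung lost it in 3 of 5 cases (-0.83 to -0.81), within a range of -0.997 to -0.69 over all samples left out in turn. The cause was not tested. Without the trachea-titled tumors (1 and 7) every member kept its call in limma. Dll4 was then at -0.63 (limma adjusted p = 0.0487), its smallest change over the alternatives, Dll1 at -1.62 and Notch2 at -3.17. Scaling to the same total moved the median log2 fold change of all genes from 0.04 to 0.23. Without division by length, Dll3 held 8.60% of the ligand sum in tumors in place of 15.1%, Jag2 held 59.2% and Notch1 16.3% of the receptor sum. With columns scaled to the same total the nuclear complex list kept 1 lower call and the receptor cleavage list 3, and the glycosylation list had 1 higher call. In edgeR the glycosylation list had 2 lower calls. No paired analysis was possible because the replicate numbers were given in order of listing and pair no samples. Y-linked genes were expressed in 4 of 5 normal lungs and 1 of 7 tumors (tumor 1), so their covariate overlaps with tissue. Depth limits Dll3 and Hes5 in normal lung, where values rest on at most a few reads.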
